A study of Arabidopsis thaliana with 6 samples.

Results

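RNA of rosette leaves of Arabidopsis thaliana plants that carried a complete extra copy of chromosome 2 (trisomy 2, AAA) was compared with that of diploid wild type (WT, Col-0), on 4 of the 6 Affymetrix ATH1 arrays of the series. The members were chosen by karyotype alone, 2 arrays titled trisomy 2 and 2 titled wild type, and the remaining 2 arrays held tertiary trisomy 2 (AAa), in which the extra chromosome joins the part of Chr. 2 that ends at the T-DNA insertion aur2-1 in AUR2 to an end of Chr. 3. All plants were in the Col-0 background, were 26 days old, received no treatment and grew at 22 °C with days of 16 h light and nights of 8 h, and each array held RNA combined from 21 to 35 plants. The AAA plants were round-leaved progeny of the aur2-1/+ line that lacked the T-DNA, so that they and WT differed in line of descent as well as in karyotype, and those cannot be told apart. No source says whether the 2 arrays of a karyotype came from separate sowings, and the tests below measure only the spread between such arrays.

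An extra chromosome raises the dose of every gene it carries, and transcripts of those genes (cis changes) usually rise towards the copy number ratio of 1.5. Genes on the other, still paired chromosomes can change as well (trans changes), since the extra genes include regulators and since many protein complexes mix subunits from triplicated and paired genes. Cells of yeast, plants and animals with extra chromosomes often show altered expression of genes for stress responses and protein folding, although which genes move differs between organisms and karyotypes.

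The array gave signals for 22746 probe sets besides its controls, and 13648 counted as expressed, with a mean log2 signal over the 6 arrays at or above a limit that equals a signal of 77.8. Of these, 1076 detected a single gene of Chr. 2 (cis) and 6181 a single gene of Chr. 1, 3, 4 or 5 (trans), whereas 6050 had no gene name in the annotation used, 272 had several genes and the rest were organelle genes. Signals are given after each array was centred on the genes of Chr. 1, 4 and 5, and a log2 ratio is the AAA mean minus the WT mean. A probe set is called changed at an adjusted p below 0.05 (limma across all expressed probe sets, Benjamini-Hochberg), and "rose" or "fell" is used of such probe sets only. In all, 16.3% of expressed probe sets were called, 12.9% as higher and 3.39% as lower in AAA. Arrays of 1 karyotype correlated at 0.986 (WT) and 0.989 (AAA) over the expressed probe sets, and arrays of WT and AAA set against each other at 0.969 to 0.970. RCA, the Rubisco activase of chloroplasts, was among the brightest genes on every array, and the root markers PYK10 and EXPA7 lay between 2.78 and 24.6 on the WT and AAA arrays, far below the expression limit. The array's GAPDH control gave a log2 ratio of 3-prime to 5-prime signal of 0.04 and 0.08 in WT and of 0.25 and 0.32 in AAA, the UBQ and actin controls overlapped between the karyotypes, and the part of RNA integrity in the results was not tested. AUR2, which encodes an Aurora kinase, had signals of 68.5 and 61.2 in WT and 67.3 and 70.4 in AAA, which overlap (log2 ratio 0.09, adjusted p = 0.83, limma), as against 973 and 970.1 in AAa. The WT and AAA signals of AUR2 all lay under the expression limit, and the gene counted as expressed only through its AAa signals. Its ratio of AAA over WT is therefore imprecise and does not show whether AUR2 rose.

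Transcripts of Chr. 2 were higher in AAA almost throughout. In RNA of whole leaves, fewer or more cells of a type and less or more RNA per cell cannot be told apart. Of the 1076 expressed cis probe sets, 1031 had a log2 ratio above 0, 602 (55.9%) rose and 7 (0.651%) fell. Their median log2 ratio was 0.51, a 1.43-fold level, and it was 0.53 for each AAA array set against the WT mean, whereas WT arrays differed from each other by a median of 0.01. The trans median was -0.01, with 260 of 6181 trans probe sets higher (4.21%) and 226 lower (3.66%), so that 53.5% of trans calls were higher. This split depended on the scale: without centring, 162 were higher and 406 lower (28.5% higher), and the trans median was -0.09. It also depended on single arrays, since 92 were higher and 133 lower without AAA replicate 2. Of 134 calls for probe sets named below or kept in the lists, the 79 with an adjusted p under 0.0025 were all kept when each array was left out in turn, and 51 of the remainder lost the call without at least 1 array. The limit of 0.0025 lies just under the smallest adjusted p among the lost calls (0.0026 for AT2G32220, limma). It thus describes which calls were lost and is not a separate test of them. Between their 25th and 75th percentiles cis log2 ratios ran from 0.35 to 0.71 and trans ratios from -0.17 to 0.17. The cis median hardly moved with brightness: with cis probe sets split by brightness into 4 equal sets of 269, it was 0.51, 0.51, 0.53 and 0.52 from dimmest to brightest, and the signals of the brightest set ran from 993 to 44424. The spread narrowed over the same sets, from an interquartile range of 0.47 to 0.28.

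**Figure D1:**
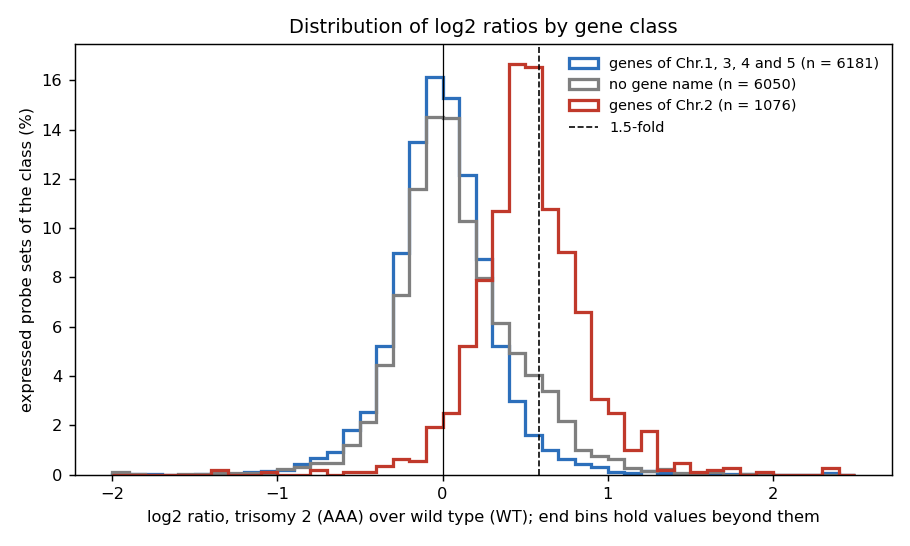
Share of expressed probe sets (y axis, percent of each class) by log2 ratio of AAA over WT (x axis, bins of 0.1) for genes of Chr. 2, genes of the other chromosomes and probe sets without a gene name. The cis curve peaks just below 1.5-fold (dashed line) and the trans curve at 0, and the curve of unnamed probe sets peaks at 0 with a shoulder on the side of higher values.

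Set against 1.5-fold, which is the ratio of 3 gene copies to 2, 994 of the 1076 cis probe sets did not differ, 37 (3.44%) lay above and 45 (4.18%) below (limma's moderated test, Benjamini-Hochberg over cis probe sets). Of the 45 below, 7 fell against WT and 38 were not called against it, and no probe set was both called higher than WT and called below 1.5-fold. The precision hardly allowed both calls together. AT2G40600, at a log2 ratio of 0.36, was called higher than WT only, and EXPA8, at 0.19, below 1.5-fold only. PSBW, at 0.28, was called neither way. The lack of probe sets with both calls therefore does not exclude levels between those of WT and 1.5-fold. In all, 429 cis probe sets were called against neither value, so their level between diploid and 1.5-fold was not resolved with 2 arrays per karyotype. With deposited or whole-array scaling the cis median was 0.42 to 0.43 and 82 to 86 cis probe sets lay below 1.5-fold, so counts on either side of that ratio depend on the scale.

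Cytosolic ribosomal proteins, which assemble together and come from genes on all 5 chromosomes, differed by chromosome. Of 21 expressed cis members 17 rose and none fell, with a median log2 ratio of 0.57. Among all cis probe sets 55.9% rose and 0.651% fell, with a median of 0.51, so most of this was shared with Chr. 2 as a whole. None of 90 trans members was called in either direction, with a median of 0.03 (all trans probe sets: 4.21% higher and 3.66% lower). PGY1, a large-subunit protein with a role in leaf polarity, had signals of 5382 and 4976 in WT and 7707 and 8319 in AAA. The groups did not overlap, and PGY1 rose by 0.63 (SE 0.10, adjusted p = 0.00074, limma). AT2G27720, an acidic stalk protein, had 5045 and 4777 in WT and 8124 and 8544 in AAA (log2 ratio 0.76, SE 0.10). AT2G34480, among the brightest members, had 9012 and 8428 in WT and 13331 and 12602 in AAA (log2 ratio 0.57). The other 4 cis members were not called, of which AT2G37600, at 531 and 554 in WT against 563 and 604 in AAA, was called below 1.5-fold.

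The lists of primary metabolism and housekeeping held few members each. Of 10 trans members of the tricarboxylic acid cycle 1 was called, and the cis member, AT2G20420 for a succinyl-CoA ligase subunit, had 2940 and 3167 in WT and 4846 and 4409 in AAA (log2 ratio 0.60, adjusted p = 0.0013, limma). None of the 5 trans proteasome subunits, 6 trans photosynthesis genes, 6 trans genes of chlorophyll metabolism, 5 trans tubulins or 4 trans reference genes was called, beside 4.21% higher and 3.66% lower among all trans probe sets, so that lists of this size say little. The cis members AT2G32730 of the proteasome, PSBW of photosystem II and TUB7, a tubulin, were not called either, with log2 ratios of 0.35, 0.28 and 0.39. Of the other cis members, HEME2 of chlorophyll synthesis rose by 0.41 but lost the call without WT replicate 2 or either AAA array (adjusted p up to 0.14) and with deposited or whole-array scaling, and LHCB4.3, a minor antenna protein of photosystem II, had 3130 and 2405 in WT and 4600 and 4853 in AAA (log2 ratio 0.78, adjusted p = 0.00097, limma). Its relatives on paired chromosomes, LHCB4.1 and LHCB4.2, had log2 ratios of -0.09 and 0.05.

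Some bright genes of the extra chromosome were called below 1.5-fold and not called against WT, which does not show that they equalled WT. RCA had 45109 and 41281 in WT and 40195 and 49567 in AAA, so that the groups overlapped, and its log2 ratio of 0.05 (SE 0.13) was called below 1.5-fold. The signals of RCA were near the upper end of the array's range, and any compression of high signals was not tested. PIP, a proline iminopeptidase, had 3593 and 3208 in WT and 2726 and 2567 in AAA, and AT2G34620 had 4783 and 4836 in WT and 4042 and 3834 in AAA. Both AAA signals lay below both WT signals in each gene, but neither was called lower than WT (adjusted p = 0.061 and 0.091, limma), and both were called below 1.5-fold. CHI, a chitinase gene, was at 1906 and 1894 in WT and slightly higher, at 2019 and 1951, in AAA. EXPA8, an expansin that loosens cell walls, was at 2302 and 2087 in WT and 2504 and 2489 in AAA (log2 ratio 0.19) and was also called below 1.5-fold.

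Of the 7 cis genes that fell although they were triplicated, 3 encode chaperones or small heat shock proteins. AT2G20560, a DnaJ-type co-chaperone, had 257 and 315 in WT and 111 and 116 in AAA, and AT2G19310, a small heat shock protein, had 1326 and 1274 in WT and 612 and 677 in AAA. Neither pair overlapped, and the log2 ratios were -1.33 (SE 0.21, adjusted p = 0.00053, limma) and -1.01 (SE 0.12, adjusted p = 5e-05). AT2G29500, a cytosolic small heat shock protein, had 148 and 157 in WT and 76.6 and 103 in AAA (log2 ratio -0.78, adjusted p = 0.035), and its call was lost without AAA replicate 1 or either WT array, where adjusted p reached 0.24. GH3.3, an enzyme that conjugates the hormone auxin to amino acids, had 245 and 239.8 in WT and 94.2 and 99.1 in AAA (log2 ratio -1.33, SE 0.18), as against 308 and 310 in AAa, and AAA differed from AAa as well (log2 ratio -1.68, adjusted p = 1.1e-05, in a contrast that called 24.9% of expressed probe sets). AT2G32160 fell by 0.54, AT2G46600 by 0.34 and the glutaredoxin AT2G47880 by 0.77. The last 2 calls were lost whichever single array was left out (adjusted p up to 0.29 and 0.22).

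Heat shock and chaperone genes fell on the other chromosomes too. The list held 43 genes, of which 16 had a probe set with a gene name, and it was chosen with earlier results of these data known. All 12 expressed members had a log2 ratio below 0, and 8 of them fell (3 cis and 5 trans), where 3.39% of all expressed probe sets did. Members without a named probe set were not measured here. ROF2 (AT5G48570), a heat-induced FK506-binding co-chaperone that binds HSP90, had 1597 and 1722 in WT and 237 and 222 in AAA. Its log2 ratio was -2.86 (SE 0.14, adjusted p = 2.6e-09, limma), a level 7.24-fold lower, and it stood at 466 and 398 in AAa. AT1G54050, another small heat shock protein, had 911.5 and 911.3 in WT and 204.7 and 204.5 in AAA, a log2 ratio of -2.16. Fes1A, a nucleotide exchange factor that protects HSP70 in heat, had 744 and 775 in WT, 299 and 275 in AAA and 738 and 742 in AAa. It was thus lower in AAA only: the log2 ratio was -1.40 against WT (adjusted p = 5.8e-06) and -1.37 against AAa (adjusted p = 3.9e-06). HSC70-3 (AT3G09440), the abundant cytosolic HSP70, had 9147 and 7442 in WT and 6448 and 6169 in AAA, a smaller log2 ratio of -0.39 (adjusted p = 0.029, and up to 0.26 without WT replicate 1 or either AAA array). Hop1 and Hop2, which link HSP70 to HSP90, had log2 ratios of -0.18 and -0.36 and were not called. Hop3 and HSP23.5 (AT5G51440) were below the expression limit over the 6 arrays and were not tested, with 99.4 and 112 in WT against 23.0 and 14.02 in AAA for Hop3, and 115.5 and 111.7 against 45.9 and 41.4 for HSP23.5.

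In the lists of protein breakdown, none of 5 trans proteasome subunits was called, 1 of 10 trans ubiquitin-conjugating enzymes fell and 1 of 11 trans ubiquitin-specific proteases rose. Among all trans probe sets 4.21% were called higher and 3.66% lower, so counts this low say little. These calls, for UBC32 (log2 ratio -0.49) and UBP24 (0.54), were sensitive to single arrays. That of UBC32 was lost without WT replicate 1 or AAA replicate 1, and that of UBP24 without WT replicate 2 or AAA replicate 1. A pair of chaperone-related genes that fell, SGT1A and AT3G12050, was singled out after the values were seen. SGT1A, a co-chaperone of HSP90 in immune receptor complexes, had 2962 and 3203 in WT and 1486 and 1703 in AAA (log2 ratio -0.95, SE 0.11, adjusted p = 5e-05, limma). AT3G12050, which resembles the HSP90 activator Aha1, had 1491 and 1845 in WT and 960 and 691 in AAA (log2 ratio -1.03). The RING-type ubiquitin ligase genes AT1G26800 and AT1G14200 were among the 12 trans genes with the lowest ratios, at -1.70 (1133 and 1252 in WT, 350.1 and 382 in AAA) and -1.36 (1514 and 1723 in WT, 615 and 647 in AAA). Of the 4 expressed genes of protein folding in the endoplasmic reticulum, CRT1b (calreticulin) and ATERDJ3B fell by 0.50 and 0.36, and BZIP60, a transcription factor of the unfolded protein response, rose by 0.45. The CRT1b call was lost without AAA replicate 1 (adjusted p = 0.062), that of ATERDJ3B whichever array was left out (up to 0.18) and that of BZIP60 without WT replicate 1 or AAA replicate 1 (up to 0.16), and BZIP60 was not called with deposited or whole-array scaling.

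**Figure D2:**
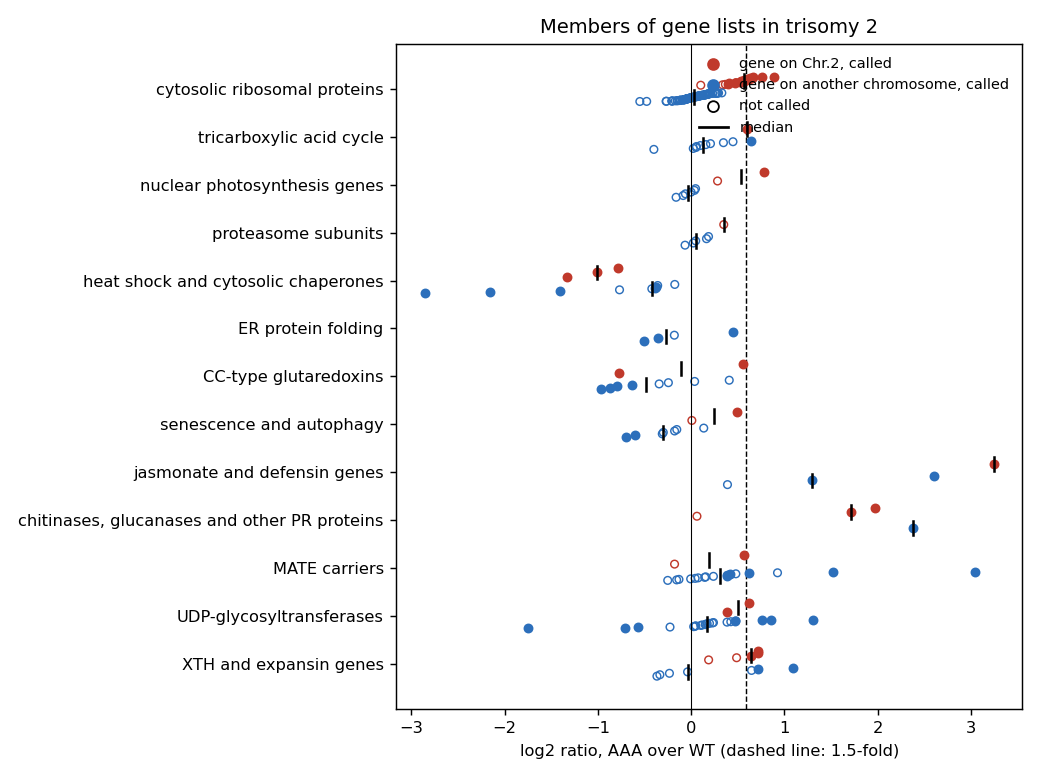
Log2 ratio of AAA over WT (x axis) for every expressed member of 13 gene lists (y axis), with genes of Chr. 2 in red and of other chromosomes in blue, filled where called and open where not, and a bar at each median. Ribosomal proteins sit near 1.5-fold in cis and near 0 in trans, whereas both colours lie below 0 for heat shock genes and well above 0 for most defensin and chitinase genes.

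Genes for antimicrobial and cell wall-degrading proteins were among those with the highest ratios. PDF1.2b, a plant defensin on Chr. 2, had 1268 and 1208 in WT and 12856 and 10757 in AAA. It rose by 3.25 (SE 0.11, adjusted p = 5.8e-11, limma) and stood at 1454 and 1389 in AAa. PDF1.2, a near-identical defensin on Chr. 5 and a standard marker of jasmonate and ethylene signalling, had 459.7 and 432.5 in WT, 2889 and 2533 in AAA and 267 and 236 in AAa. Because these copies share much of their sequence, their probe sets can detect each other's transcripts, and how far each gene rose is uncertain. LCR69 and LCR68, other defensin-like genes of Chr. 2, were singled out after their values were seen. LCR69 had 1053 and 1051 in WT and 2852 and 3058 in AAA (log2 ratio 1.49, above 1.5-fold), while LCR68 was called below 1.5-fold (1771 and 1703 in WT, 1818 and 2054 in AAA).

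Chitinase genes in one stretch of Chr. 2 moved unequally. AT2G43590 had 250 and 238 in WT and 894 and 1028 in AAA, and AT2G43620 had 75.6 and 71.6 in WT and 242 and 241 in AAA, log2 ratios of 1.98 and 1.71 that were both above 1.5-fold. Both WT signals of AT2G43620 lay under the expression limit, so the size of its ratio is imprecise. CHI, which lies in the same stretch, was not called (above). Nearby genes annotated as trypsin inhibitors, singled out after their values were seen, rose as well, with log2 ratios of 0.78 for AT2G43530, 1.23 for AT2G43535 and 1.09 for AT2G43550. Their log2 ratios of AAA over AAa were 0.38, -0.05 and 0.39, in the same order. On Chr. 4, AT4G16260, a beta-1,3-glucanase, had 64.6 and 41.2 in WT and 281 and 258 in AAA. Its WT signals lay under the expression limit, so the size of its ratio (2.38) is imprecise. AT3G16530, a legume-type lectin, had 2581 and 2604 in WT, 8485 and 8884 in AAA and 2182 and 2611 in AAa, a rise of 1.74 (SE 0.11, adjusted p = 7e-08, limma). ECS1, a cell wall protein studied in defence against Xanthomonas and singled out after its values were seen, was among the brightest genes on the array and still rose, from 40393 and 29025 to 55508 and 60981 (log2 ratio 0.76).

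Regulators of defence and early stress responses moved in both directions. Of 6 expressed trans genes of salicylate and immune signalling 2 rose, 1 fell and 3 (SAG101, PUB24 and WRKY22) were not called, and 2 of 5 trans WRKY factors and none of 6 trans U-box ligases rose (all trans probe sets: 4.21% higher and 3.66% lower). The 2 that rose were the same genes in both lists, WRKY6 and WRKY53, so they count once. PUB23, a U-box ubiquitin ligase of Chr. 2 that dampens immune signalling, had 78.1 and 29.4 in WT and 261 and 279 in AAA (log2 ratio 2.49, SE 0.34), with 1 WT array under the expression limit. STZ, a zinc finger repressor induced by cold, salt and wounding, had 1498 and 1545 in WT and 2812 and 3077 in AAA, a rise of 0.95 (adjusted p = 3.3e-05, limma). ORA47, an AP2/ERF factor of jasmonate signalling singled out after its values were seen, had 461 and 369 in WT and 955 and 1025 in AAA, against 438 and 449 in AAa (log2 ratio 1.26 over WT). WRKY6 and WRKY53, factors of senescence and defence, rose by 0.77 and 0.54, and their calls were lost without AAA replicate 2 (adjusted p = 0.074) and without AAA replicate 1 (0.062), respectively. JRG21, a jasmonate-regulated oxygenase, had 50.1 and 74.9 in WT and 139 and 163 in AAA (log2 ratio 1.29), and the size of this ratio is imprecise because both WT signals lay under the expression limit. UGT76B1, a glucosyltransferase that acts on isoleucic acid and salicylic acid, moved the other way, from 330 and 318 to 202 and 195 (log2 ratio -0.71, adjusted p = 0.0022), and stood far higher in AAa, at 1389 and 1455. CML41, a calmodulin-like protein of plasmodesmata, had 526 and 511.5 in WT and 247 and 231 in AAA, a log2 ratio of -1.12. Of the other 4 expressed trans calmodulin-like genes CML23 and CML38 rose, by 0.79 and 0.61, and CML37 and CML42 were not called. Both rises were lost without either AAA array, and without WT replicate 1 for CML23 and WT replicate 2 for CML38 (adjusted p up to 0.15 and 0.23), and CML38 was not called with deposited or whole-array scaling.

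Cold-induced COR15A and COR15B, neighbours on Chr. 2 that encode chloroplast cryoprotective proteins, rose beyond 1.5-fold. COR15B had 1777 and 1447 in WT and 5649 and 5083 in AAA (log2 ratio 1.74, SE 0.12), and COR15A had 1456 and 1384 in WT and 3320 and 3574 in AAA (1.28, SE 0.11). In AAa, whose extra chromosome lacks the part of Chr. 2 beyond AUR2 where both genes lie, COR15B stood at 3501 and 3201. COR15A stood at 4165 and 4803 there, above AAA (log2 ratio of AAA over AAa -0.38, adjusted p = 0.021, limma), whereas COR15B was lower than in AAA (0.68). The part of the third copy in these rises was not tested. Both genes are near copies, and their probe sets may share signal. The list of 35 cold, drought and abscisic acid genes had 2 expressed members on other chromosomes. These, COR47 (log2 ratio 0.25) and LTI30 (-0.29), were not called, and 2 genes say little about cold-induced genes elsewhere. STZ of Chr. 1, described above as induced by cold, rose by 0.95.

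**Figure D3:**
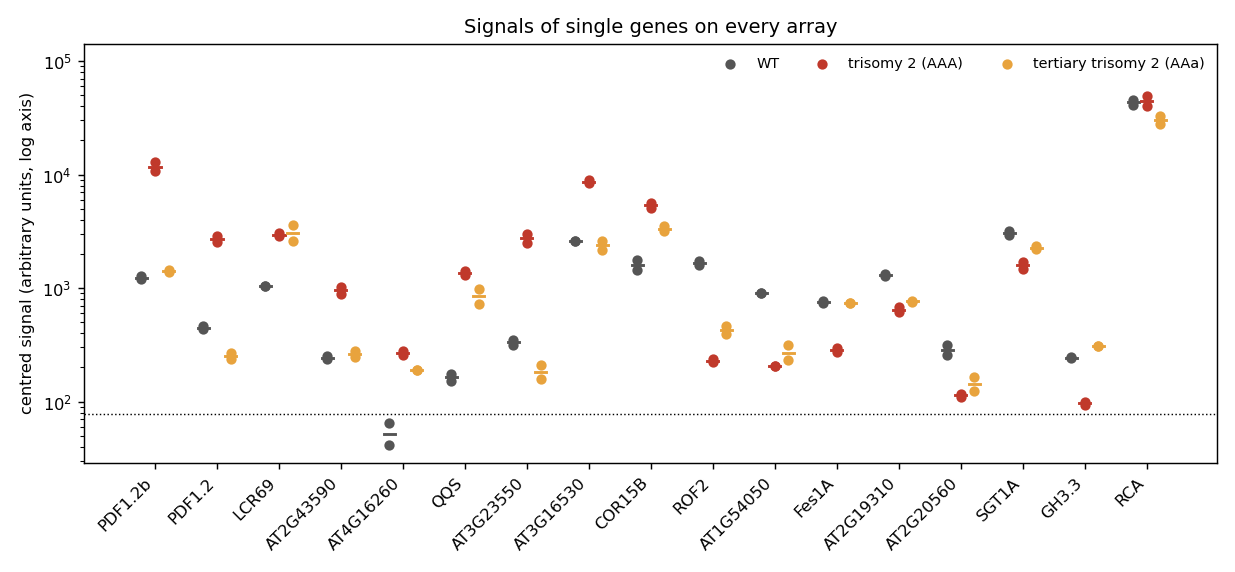
Centred signals (y axis, log scale) of 17 genes on each of the 6 arrays, 1 point per array with the geometric mean of each karyotype as a bar, WT in grey, AAA in red and AAa in orange, and the expression limit as a dotted line. The AAA points of the defensin, carrier and lectin genes lie above both WT points and those of ROF2, AT1G54050, Fes1A and GH3.3 below them, while RCA overlaps.

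QQS, an orphan gene of Chr. 3 that influences the split of carbon between starch and protein, had 175 and 152 in WT and 1426 and 1294 in AAA. It rose by 3.06 (SE 0.16, adjusted p = 3.7e-09, limma), or 8.33-fold, and was also high in AAa, at 979 and 727. None of the 5 other expressed genes for starch and sugar metabolism was called. AT1G77960 had the highest trans ratio, 3.29, with 84.0 and 94.5 in WT, 786 and 969 in AAA and 168 and 232 in AAa.

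Carriers and conjugating enzymes of small molecules were taken next. Of 18 expressed trans MATE carriers, which export organic compounds and ions from the cytosol, 5 rose and none fell, with a median of 0.31 beside -0.01, 4.21% higher and 3.66% lower for all trans probe sets. AT3G23550 had 350 and 318 in WT, 2999 and 2519 in AAA and 208 and 160 in AAa, so it was 8.24-fold higher than in WT (log2 ratio 3.04, SE 0.15, adjusted p = 3.7e-09, limma) and higher by 3.91 than in AAa. AT5G52050 had 123 and 121 in WT and 380 and 323 in AAA (log2 ratio 1.52). The other 3 calls were smaller, the highest being 0.62 for AT1G66760, which lost its call whichever array was left out (adjusted p up to 0.20) and with deposited or whole-array scaling. UDP-glycosyltransferases, which attach sugars to hormones and phenolics, moved in both directions: 4 of 22 trans members rose and 3 fell, with a median of 0.17, beside the same 4.21% and 3.66%. UGT72E1, which acts on precursors of lignin, had 258 and 187.5 in WT and 529 and 558 in AAA (2.47-fold), UGT85A2 rose by 0.86, and UGT73D1 fell from 94.7 and 86.0 to 38.7 and 18.8 while AAa stood at 299 and 303. Both AAA signals of UGT73D1 lay under the expression limit, so the size of its fall is imprecise. CYP71B22 and CYP71B6, the latter on Chr. 2, rose by 1.02 and 1.01, and the former lost the call without AAA replicate 2 (adjusted p = 0.080).

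Among genes of growth, 2 of 7 trans members of the list of xyloglucan-remodelling (XTH) and expansin genes rose and none fell, with a median of -0.04. Among all trans probe sets 4.21% were called higher and 3.66% lower. EXLA1, an expansin-like protein, had 599 and 764 in WT and 1115 and 1105 in AAA (log2 ratio 0.71, adjusted p = 0.0022, limma), against 506 and 475 in AAa. XTH32 of Chr. 2, which remodels xyloglucan, rose by 0.72 and EXGT-A3 by 0.64, near the gene dose. IAA29, an auxin-inducible repressor, had 335 and 364 in WT and 181 and 201 in AAA (log2 ratio -0.87, adjusted p = 0.0037). AT5G12110, a translation elongation factor 1B subunit, had 1013 and 941 in WT, 259 and 284 in AAA and 170 and 154 in AAa, a log2 ratio of -1.85 (SE 0.15), unlike the ribosomal proteins. Autophagy genes of the ATG8 family, whose products coat forming autophagosomes, were mixed. APG8A and ATG8H fell by 0.60 and 0.69, and ATG8D of Chr. 2 rose by 0.49. ATG8E of Chr. 2, at 0.01, was not called against WT and lay below 1.5-fold. In the list of senescence and autophagy genes, APG8A and ATG8H were the 2 of 7 expressed trans members that fell, and 5 were not called. Among all trans probe sets 3.66% were called lower. Calls for ATG8D were lost without WT replicate 2 or AAA replicate 2 (adjusted p up to 0.20), and those for APG8A and ATG8H were lost without WT replicate 2 or either AAA array (adjusted p up to 0.12 and 0.13). YAB5, YAB3, PHV and AN were the expressed genes of leaf shape with a name, and none was called; no gene-named probe set was found here for AS1, PHB, ETT or FIL.

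CC-type glutaredoxins, small thiol proteins found in land plants, fell in part. Of 8 trans members 4 fell and none rose, with a median of -0.49, beside 3.66% lower among all trans probe sets. Of 2 cis members 1 rose, by 0.56, and 1, AT2G47880, fell by 0.77 (above), beside 55.9% higher among all cis probe sets. AT4G15680, AT4G15690 and AT4G15700 lie side by side on Chr. 4 and resemble each other, so their probe sets may share transcripts. AT4G15680 had 456 and 713 in WT, 337 and 251 in AAA and 142 and 164 in AAa. The calls of these 3 neighbours were each lost without at least 1 array. The call of the fourth trans member, AT3G62950 (log2 ratio -0.63), was lost without AAA replicate 2 or WT replicate 2, so no trans call of the list was kept under every omission.

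A run of neighbouring genes on Chr. 4, which is not part of the extra chromosome, was lower by about the same amount, which was noticed after the values were seen and therefore carries no test as a run. AT4G28706 had 2569 and 2678 in WT and 1328 and 1178 in AAA, AT4G28740 had 2891 and 2914 in WT and 1349 and 1443 in AAA, and AT4G28770 had 2774 and 2762 in WT and 1258 and 1383 in AAA. These are log2 ratios of -1.07, -1.06 and -1.07. TRM20 (AT4G28760) fell by 1.15, AT4G28780 by 0.98 and AT4G28830 by 0.82, the last with a call that was lost without WT replicate 1 or either AAA array (adjusted p up to 0.31). PSAE-1, a bright photosystem I gene inside the run, had 31279 and 31888 in WT and 26735 and 29847 in AAA and was not called, nor was XIH, a dim myosin gene. Over 6165 windows of 5 successive expressed trans probe sets, the lowest median log2 ratio was -1.06, in this run, and the next lowest elsewhere was -0.79, at AT4G15640 to AT4G15700, the glutaredoxin genes just described. In AAa the run was low too, at 1233 and 1133 for AT4G28706 and 1392 and 1373 for AT4G28770, and the AAA and AAa levels of these genes did not differ by the test (adjusted p = 0.66 and 0.71, limma). AT4G28780, in contrast, was lower in AAa, at 292 and 290, than in AAA, at 599 and 600 (adjusted p = 5e-05).

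**Figure D4:**
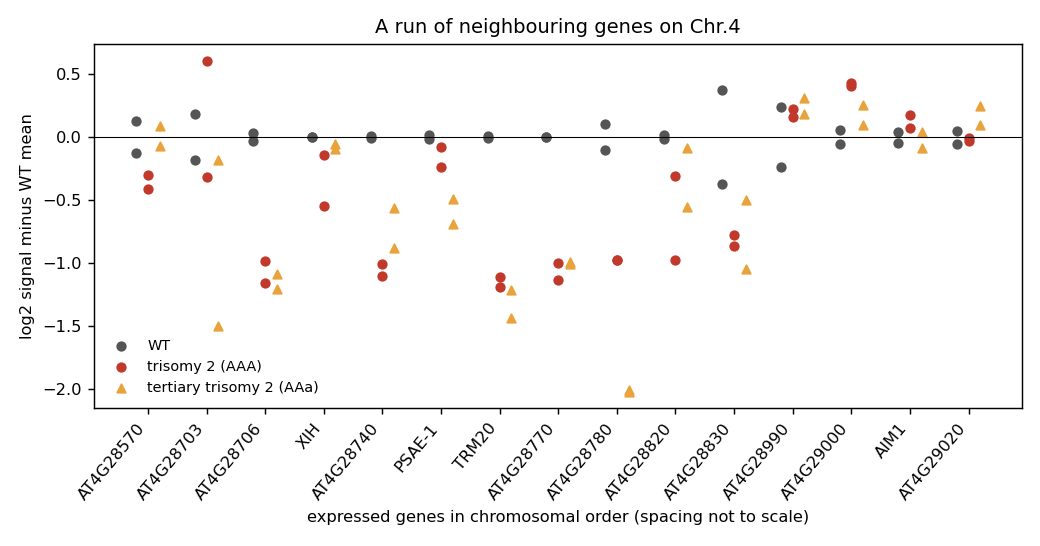
Log2 signal relative to the WT mean (y axis) for expressed genes of a stretch of Chr. 4 in chromosomal order (x axis), 1 point per array, WT in grey, AAA in red and AAa as orange triangles. From AT4G28706 to AT4G28830 the AAA points lie below 0, near -1 for 5 genes, whereas the last 4 genes shown lie near or above 0.

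Probe sets without a gene name made up 6050 of the 13648 expressed and 317 of the 500 brightest, and they were called about as often as the named ones, with 856 (14.1%) higher and 225 (3.72%) lower beside 862 (11.9%) and 233 (3.21%) of the named cis and trans probe sets together. Which of them detect Chr. 2 was not established here, so their cis and trans shares cannot be separated. Those called higher had a median log2 ratio of 0.64, and of the 87 called higher among the 500 brightest unnamed probe sets, 81 had a log2 ratio from 0.3 to 0.8. This range holds the cis median, but the lowest ratio among these 87 was 0.32, so its low end follows from the call. Bright trans probe sets called higher were not set beside them, so the range does not tell genes of Chr. 2 from others. The 2 largest falls on the whole array were in this class. Probe set 260248_at had 1391 and 2204 in WT and 95.1 and 74.7 in AAA, a log2 ratio of -4.38 (SE 0.21, adjusted p = 2.6e-09, limma), with 161 and 187 in AAa. Probe set 266841_at had 1308 and 1438 in WT and 69.2 and 65.6 in AAA, a log2 ratio of -4.35 (SE 0.15), and its AAa signals of 465 and 536 were between those of the other karyotypes. Both AAA signals of 266841_at and 1 of 260248_at lay under the expression limit, so the sizes of these falls and their order are imprecise. Altogether 6 unnamed probe sets fell at least 4-fold against 2 trans ones, and none rose as much, against 8 named ones.

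The largest rises among them were 1.93 for 267357_at, from 1799 and 1801 to 6937 and 6809, and 1.83 for 267567_at, from 77.1 and 105.5 to 307 and 335. The brightest called higher, 262557_at, had 30255 and 31303 in WT and 36836 and 42120 in AAA (log2 ratio 0.36), and the brightest called lower, 256766_at, had 21235 and 20479 in WT and 13747 and 16681 in AAA (-0.46). Both calls were sensitive to single arrays, that of 262557_at being lost whichever array was left out (adjusted p up to 0.30) and that of 256766_at without WT replicate 1 or AAA replicate 1 (up to 0.19).

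**Figure D5:**
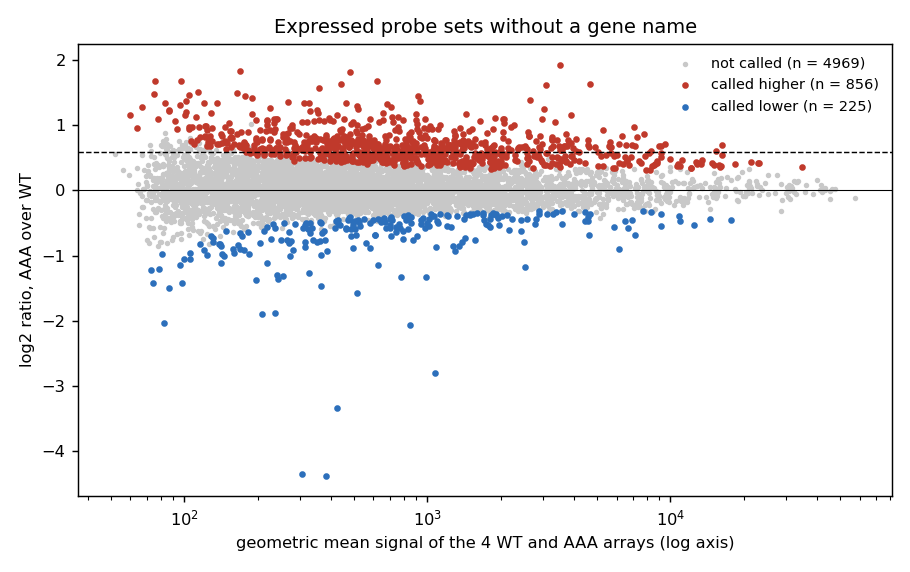
Log2 ratio of AAA over WT (y axis) against the geometric mean signal (x axis, log scale) for the 6050 expressed probe sets without a gene name, red where called higher, blue where called lower and grey where not called. Red points lie around and above 1.5-fold (dashed line), with the brightest of them nearer to it or below it, and 2 blue points stand alone below -4.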

How the data were processed

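RNA of rosette leaves was hybridized to 6 Affymetrix ATH1 arrays, 2 per karyotype, and groups and replicate numbers were taken from sample titles. The deposited intensity values are linear probe set signals that the authors obtained with GCOS (version not given in the sources used here); their mean after trimming 2% at each end was about 500.05 on every array. The authors' own GC-RMA and vsn values were not used here. Signals below 1 (245 to 488 per array) were set to 1 and taken to log2, and the median over expressed genes of Chr. 1, 4 and 5 was made equal on all arrays. Expressed meant a mean log2 signal at or above the 40th percentile. limma 3.58.1 in R 4.3.3 (lmFit, eBayes with an intensity trend) was fitted to all 6 arrays in 3 groups, with 3 residual and 12.5 prior degrees of freedom. An exact permutation test of 2 against 2 arrays cannot go below p = 0.333, so none was used. Genes were named through a platform annotation table and RefSeq locus tags: of 22810 probe sets, 13513 had 1 gene, 503 several and 8730 none, besides 64 controls. The number of arrays limits the precision.

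Named genes were the 12 highest and 12 lowest called trans and 10 highest and 10 lowest called cis probe sets whose arrays did not overlap, 5 bright cis ones below 1.5-fold, the extremes and brightest calls without a name, up to 4 called members of each gene list, AUR2 and reference genes; others are marked as chosen after their values were seen or belong to a list. The comparison, lists and families were chosen with earlier results of these data known. The fit was checked on simulated data. Alternatives were other scalings, a signal floor, other filters, no trend, only 4 arrays, a replicate block, leaving out each array and 1 probe set per gene.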

Additional observations from a re-analysis of the deposited data

How the results depend on the processing

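With deposited scaling, centring on all expressed probe sets or quantile normalization, probe sets called lower numbered 792, 793 and 760 instead of 462, trans ones called higher 162, 162 and 156 instead of 260, trans ones called lower 406, 410 and 388 instead of 226, unnamed ones called lower 362, 359 and 348 instead of 225, cis ones below 1.5-fold 83, 82 and 86 instead of 45, and the cis median log2 ratio was 0.43, 0.43 and 0.42 instead of 0.51. Without the filter on dim probe sets 140 unnamed ones were lower, 21 cis ones lay above and 25 below 1.5-fold, and the cis median was 0.44; without the intensity trend these counts were 139, 22 and 24. With the filter at the 60th percentile 3 cis probe sets were lower and the cis median was 0.52; only the 4 arrays of WT and AAA put 27 cis probe sets below 1.5-fold. The cis median was 0.51 with Chr. 3 among the centring genes, 0.52 with 1 probe set per gene, and 0.52 without 4 loci of the mitochondrial insertion of Chr. 2, left out after the data were seen.

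Leaving out each array in turn gave 914 to 1457 probe sets higher and 228 to 346 lower, 348 to 481 cis higher and 4 to 5 lower, 92 to 235 trans higher and 122 to 175 lower, 450 to 700 unnamed higher and 100 to 162 lower, 16 to 41 cis above and 14 to 39 below 1.5-fold, and cis medians of 0.52 to 0.53. The lone array of a karyotype was then assumed to vary like the other groups. With the replicate number as a block 1704 probe sets were higher and 433 lower, 586 cis higher and 7 lower, and 244 trans higher and 220 lower. Arrays that share a number deviated from their group means with correlations of -0.04 to 0.01, so no shared effect of the number was seen. Whether arrays with the same number were grown or processed together is not known. Of 134 named calls none reversed in any setting and 52 were lost in at least 1. Signals near the expression limit or at the top of the range set the limits of depth.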

Other observations

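Of 64 expressed plastid probe sets 9 were called higher and none lower, beside 12.9% higher and 3.39% lower among all expressed probe sets (limma, adjusted p below 0.05). At an unadjusted p below 0.05 (limma), 21 plastid probe sets were higher and 0 lower. At that threshold 2743 of all 13648 expressed probe sets were higher and 1095 lower. The median log2 ratio of the plastid probe sets was 0.23. The median was 0.11 for AAA replicate 1 and 0.30 for AAA replicate 2 against the WT mean. The highest were rpl36, a ribosomal protein, from 8947 and 5467 in WT to 13732 and 16523 in AAA, and psbM, a small subunit of photosystem II, from 22039 and 15837 in WT to 32861 and 28924 in AAA. With deposited or whole-array scaling 5 or 6 were called higher and the median was 0.13 to 0.14, and without AAA replicate 2 the counts were 2 higher and 1 lower, with a median of 0.11.

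The 4 expressed loci of the mitochondrial insertion on Chr. 2, whose probes can also detect transcripts of the mitochondrial genome, had a median of 0.28 and no call, and 5 probe sets of mitochondrial genes had a median of 0.06 and no call.

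Several families were measured with few or no calls in trans: none of 9 IQ-domain, 6 RALF-like, 6 AGAMOUS-like, 7 PRA1, 5 tetraspanin and 5 beta-glucosidase probe sets, and 1 of 13 cytochromes P450, 1 of 8 SWEET sugar carriers and 1 of 11 ubiquitin-specific proteases. Among all trans probe sets 4.21% were called higher and 3.66% lower, so counts this low in lists of this size are no result about the families. SWEET1, which moves glucose across membranes, had 724 and 605 in WT and 882 and 966 in AAA (log2 ratio 0.48). Its call was lost without WT replicate 2 or either AAA array.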
